A study of Mus musculus with 5 samples.

Results

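Efna5 encodes ephrin-A5, and the stretch examined here is the long first intron of this gene as read on tiling arrays of mouse chromosome 17. Its members are the probes between positions 61100000 and 61224999 of the array files, which fall into 25 windows of 5 kb out of 15383 windows on the chromosome, or 783 of 387986 probes. The stretch was picked from its values, namely the difference between total and polyA RNA and the difference between the MEFB and MEFF lines, so both differences inside it are given as a description without a test. No source used here names the genome build of the file positions, and the gene was recognised by the signal of the genomic DNA channel, as described further on.

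The study hybridised double-stranded cDNA, labelled with Cy3, together with sonicated genomic DNA of the same line (input), labelled with Cy5. MEFB polyA RNA (n = 1) came from mouse embryo fibroblasts of genotype +/Thp, and MEFF total RNA (n = 2) and MEFF polyA RNA (n = 2) came from fibroblasts of genotype Thp/+. Both lines are FVBN, were taken from embryos at 12.5 days after conception and immortalised spontaneously, and each line is a single line. Both carry the Thp deletion on 1 of the parental copies of chromosome 17, on opposite copies, and the labels place it between the genes T and Sod2, a region that does not hold Efna5. The labels do not say that the arrays of a group came from separate cultures, so the spread between them may be technical, and double-stranded cDNA does not tell the strands apart.

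Ephrin-A5 is a ligand held on the cell surface by a lipid anchor. It binds EphA receptors on neighbouring cells and is best known for repelling growing axons, for example in the map from the retina to the midbrain, and it is also made by mesenchymal cells of the embryo. Introns are transcribed with the rest of a gene and then removed by splicing, polyA selection keeps mainly finished messages, and total RNA also holds unspliced and non-polyadenylated RNA.

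In the GENCODE M1 annotation of NCBIM37 (the same build as mm9), Efna5 lies on the minus strand at chr17:62953533-63230666 and has 5 exons over 277.1 kb. Intron 1 spans 229.9 kb and makes up 82.9% of the gene. The probes were set on this sequence by matching the input signal alone to the signal predicted from base composition. All 783 probes of the stretch then fell into intron 1, none touched an exon, and they covered 53.8% of the intron, from 1.4 kb to 125.1 kb beyond exon 1. At the placed positions, the input signal of these probes correlated with its prediction at 0.591. Those positions were chosen by this same match, so the value is no independent test of the placing. At the file positions, the input signal correlated with G+C content, not with the fitted prediction, at 0.006. The values are therefore not like for like, and their difference does not measure how well the probes were placed. Of the 5 blocks of 25 kb in the stretch, 4 could be placed by their own signal, and 1 only together with its neighbours.

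The sequences that frame the intron and the exons that the polyA signal marks are shown on the minus strand of NCBIM37, with exon bases in capitals and intron bases in lower case. The first runs from the last 60 bases of exon 1 into intron 1, at chr17:63230295-63230414. The second is exon 2 with the ends of introns 1 and 2, at chr17:63000189-63000485, and it holds 2 of the exon probes. The third is exon 4, at chr17:62962663-62962747, which 1 of the 2 annotated multi-exon transcripts skips.
Exon 1 to intron 1: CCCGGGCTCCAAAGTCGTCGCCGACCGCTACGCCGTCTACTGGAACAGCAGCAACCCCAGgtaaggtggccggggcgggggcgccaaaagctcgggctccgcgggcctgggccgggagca
Exon 2: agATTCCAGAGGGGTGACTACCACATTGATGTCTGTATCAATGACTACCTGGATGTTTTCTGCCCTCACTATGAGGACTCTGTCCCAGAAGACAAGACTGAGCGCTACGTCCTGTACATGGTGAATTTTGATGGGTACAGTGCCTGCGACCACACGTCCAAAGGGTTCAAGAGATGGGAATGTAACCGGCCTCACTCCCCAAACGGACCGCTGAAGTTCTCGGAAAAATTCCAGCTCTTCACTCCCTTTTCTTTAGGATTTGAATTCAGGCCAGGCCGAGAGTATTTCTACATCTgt
Exon 4: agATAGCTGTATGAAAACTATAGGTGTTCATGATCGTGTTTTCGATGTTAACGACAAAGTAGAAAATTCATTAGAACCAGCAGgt
The intron begins with gt after exon 1 and ends with ag before exon 2.

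Levels are log2 of the cDNA over the input intensity, with the median of each array set to 0, so that 0 stands for the typical probe of that array and not for the absence of RNA. The arrays differed in range. The 99th percentile of the cDNA intensity lay 20.7 times above the median on the MEFB array, 5.42 and 5.33 times on the MEFF total RNA arrays, and 9.17 and 22.4 times on the MEFF polyA arrays. A wider range spreads the levels of bright probes, so directions for exons are given below with the scalings that turn them. Total and polyA arrays came from slides of different number ranges, so RNA type and slide range cannot be told apart. Of the 11 cell type markers listed, 6 could be placed. Exon probes of the 4 placed genes of fibroblasts and mesenchyme (Cyp1b1, Ltbp1, Emilin2 and Crim1) had levels between 1.31 and 5.10 in MEFB polyA, between 0.59 and 1.30 in MEFF total and between 0.95 and 3.28 in MEFF polyA RNA. Exons of Treml1, of myeloid cells, lay between -0.87 and -0.46 on the 5 arrays. Those of Nkx2-5, a heart muscle factor, were at -0.10 in MEFB polyA, 0.44 and 0.50 in MEFF total and 1.23 and 2.25 in MEFF polyA RNA. Epcam, Cldn6, Pou5f1, Trem2 and Thbs2 were not placed and not analysed here.

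Averaged over the 25 windows, the first part of Efna5 intron 1 lay above the array median on all 5 arrays, with the highest level in MEFB polyA RNA and the lowest in MEFF polyA RNA. This mean level was 0.96 in MEFB polyA, 0.49 and 0.45 in MEFF total and 0.10 and 0.23 in MEFF polyA RNA. The 3 groups did not overlap in this mean. For comparison, the median over all windows of the chromosome was -0.07 in MEFB polyA, -0.08 on both MEFF total arrays, and -0.06 and -0.12 in MEFF polyA RNA. In single windows the level ran between 0.61 and 1.51 in MEFB polyA, between -0.08 and 0.78 on the MEFF total arrays and between -0.40 and 0.52 on the MEFF polyA arrays.

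**Figure D1:**
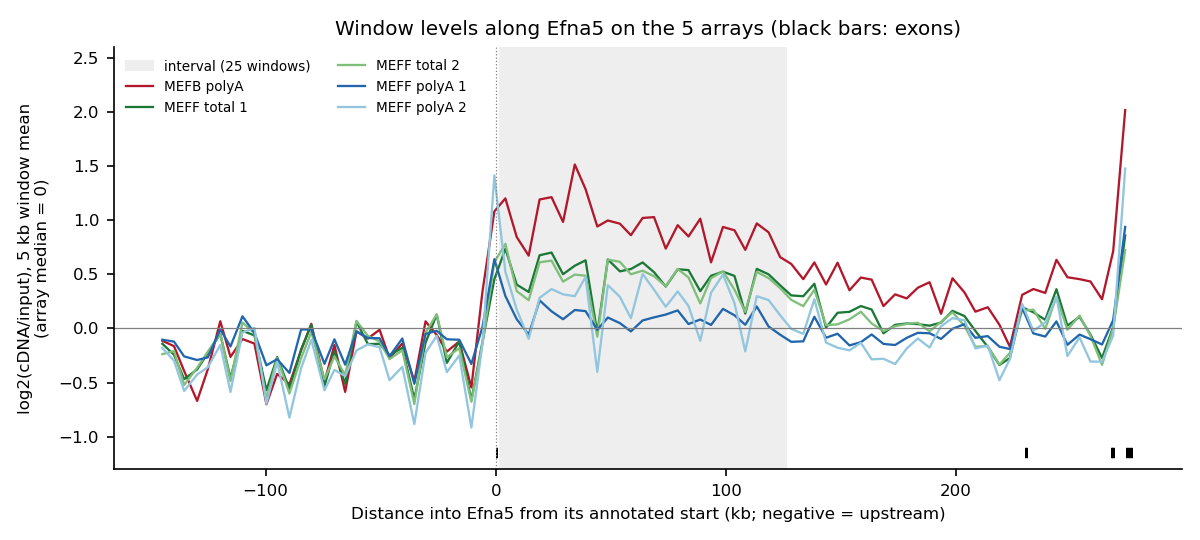
Mean log2(cDNA/input) of 5 kb windows (y axis) against the distance from the annotated start of Efna5 in kb (x axis), with 1 line per array, the 25 windows shaded and exons as black bars. The MEFB line runs above the 4 MEFF lines through the shaded part, where it averages 0.96. Beyond 5 kb upstream of the start the 5 arrays average between -0.38 and -0.16.

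The first question was how intron signal in MEFF cells differed between total and polyA RNA. In the 25 windows MEFF total RNA averaged 0.47 ± 0.03 and MEFF polyA RNA 0.16 ± 0.09 (SD, n = 2 each), a difference of 0.31, or 1.24-fold. The difference was above 0 in 25 of 25 windows, with a range of 0.15 to 0.49. Both total arrays lay above both polyA arrays in 24 of 25 windows, against 14.2% of all windows on the array, a comparison that the choice of the stretch fixed in advance. With limma and Benjamini-Hochberg adjustment over all windows, 0 of 15383 windows passed an adjusted p of 0.05 in this contrast (0% called), and 1189 (7.73%) had an unadjusted p below that value.

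Background correction by normexp, which subtracts a fitted background from each channel, moved this difference to 0.83. It then called 14 of the 25 windows higher in total RNA, against 0.689% of all windows called higher. Quantile normalization gave 0.48 and called 23 of 25 windows, against 2.53% of all windows called higher. These counts describe the chosen windows and are no test of them.

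The second question was how the 2 lines differed in polyA RNA. The MEFB array averaged 0.96 over the 25 windows and the MEFF polyA arrays 0.16 ± 0.09 (SD, n = 2), a difference of 0.80, or 1.74-fold. As deposited, the MEFB array lay above both MEFF polyA arrays in 25 of 25 windows, against 34.7% of all windows. It lay above all 4 MEFF arrays in 25 of 25 windows, against 30.9%. After normexp, MEFB fell below MEFF total replicate 1 in some of these windows, for example at 61130000, with 1.22 against 1.56. With 1 MEFB array, the spread of that line is unknown, and the fit assumes that it varied like the other groups. As deposited, limma called 1 of 15383 windows in this contrast (0.00650%), and that window was not among the 25. At an unadjusted p below 0.05, 2415 windows (15.7%) passed. After normexp the difference was 1.07 and 17 of the 25 windows were called higher in MEFB, against 1.96% of all windows, and after quantile normalization it was 0.55 with 23 of 25 called, against 3.69%. The stretch was chosen on this contrast too, so the counts for the 25 windows were fixed in part by that choice and are no test of them.

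**Figure D2:**
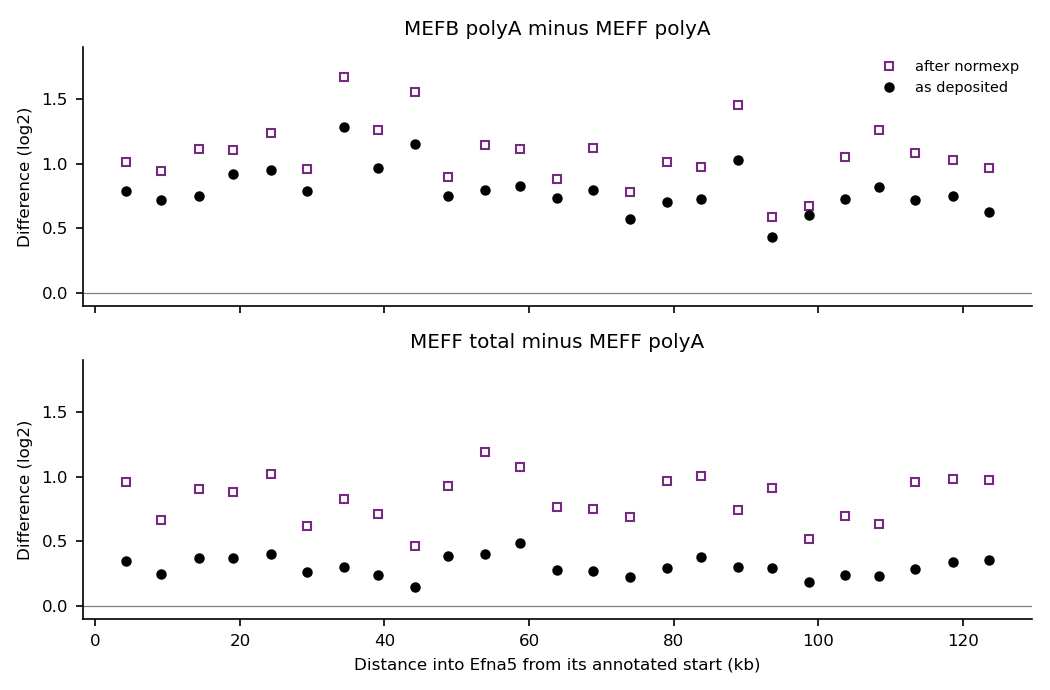
Difference in window level (log2, y axis) for MEFB polyA minus MEFF polyA (upper panel) and MEFF total minus MEFF polyA (lower panel) against distance from the annotated start (kb, x axis), as deposited (filled) and after normexp (open). All points lie above 0, and the as-deposited differences run between 0.43 and 1.28 in the upper panel and between 0.15 and 0.49 in the lower one.

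The input channel, the denominator of the ratio, was compared on its own. Over the 25 windows the input level averaged 0.12 on the MEFB array, 0.17 and 0.22 on the MEFF total arrays and 0.23 on both MEFF polyA arrays. The MEFB minus MEFF difference in input was -0.10 on average, and limma called 0 of 25 windows (smallest adjusted p = 0.108), against 8.09% of all windows. At an unadjusted p under 0.05, 6 of the 25 windows passed, against 29.9% of all windows. Without MEFF polyA replicate 1 the fit called 3 of the 25, against 21.5% of all windows. With the cDNA channel alone, the MEFB minus MEFF polyA difference in the 25 windows was 0.74 and the total minus polyA difference 0.23. The cDNA channel is the numerator of the ratio that chose the windows.

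Within the stretch, the window nearest to exon 1, at 61220000 to 61224999, had the highest level when the 3 groups were weighted equally. It stood at 1.201 in MEFB polyA, 0.74 and 0.78 in MEFF total and 0.30 and 0.52 in MEFF polyA RNA. Among all windows of each array it ranked at percentiles from 86.1 to 97.3. The window at 61190000 to 61194999, 34 kb from the annotated start, had the largest difference between the lines. Its level was 1.51 in MEFB polyA, 0.58 and 0.50 in MEFF total and 0.17 and 0.30 in MEFF polyA RNA, and the MEFB minus MEFF polyA difference was 1.28. Its neighbour at 61185000 was the third in the equal-weight ranking, at 1.29 in MEFB polyA, 0.63 and 0.49 in MEFF total and 0.16 and 0.48 in MEFF polyA RNA.

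The next window downstream in the gene, at 61180000 to 61184999, broke the profile in the MEFF line. It had -0.04 and -0.08 in MEFF total and -0.01 and -0.40 in MEFF polyA RNA, while MEFB polyA RNA stood at 0.94. Here the total and polyA groups of MEFF overlapped, the total minus polyA difference was the smallest of the 25 (0.15), and it became -0.05 without MEFF polyA replicate 2. The MEFB minus MEFF polyA difference there was 1.15. The second-lowest window, at 61115000, had 0.73 in MEFB polyA, 0.14 and 0.15 in MEFF total and 0.03 and -0.21 in MEFF polyA RNA. The remaining one of the 3 lowest, at 61210000, had 0.67 in MEFB polyA, 0.34 and 0.26 in MEFF total and -0.06 and -0.10 in MEFF polyA RNA.

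The largest total minus polyA difference, 0.49, fell at 61165000, where the MEFF total arrays had 0.55 and 0.50 and the MEFF polyA arrays -0.03 and 0.09. MEFB polyA RNA had 0.86 in that window. The smallest MEFB minus MEFF polyA difference, 0.43, fell at 61130000, with 0.61 in MEFB polyA and 0.03 and 0.33 in MEFF polyA RNA.

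The shape of the profile across the 25 windows was shared unevenly between arrays. The correlation of window levels was 0.955 between the MEFF total arrays, 0.604 between the MEFF polyA arrays, 0.602 and 0.597 for MEFF total with MEFF polyA replicate 1, and 0.892 and 0.887 with replicate 2. The MEFB array correlated with the 4 MEFF arrays at 0.416 to 0.669. These are descriptions over 25 neighbouring windows whose probes are the same on all arrays. The G+C content of the placed probes, between 37.8% and 46.5% per window, correlated with the level at -0.254 in MEFB polyA, -0.095 and -0.064 in MEFF total and -0.176 and 0.019 in MEFF polyA RNA (n = 25 windows).

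Beyond the 25 windows, intron 1 continues toward exon 2, and beyond 125 kb from exon 1 its level was lower than before. That mark is the bound of the chosen stretch, so any contrast across it depends on the choice. In the 5 bins of 25 kb nearest to exon 1, MEFB polyA RNA lay between 0.84 and 1.18, the MEFF total arrays between 0.40 and 0.53 and the MEFF polyA arrays between 0.06 and 0.29. From 125 to 150 kb, the levels were 0.55 in MEFB polyA, 0.25 and 0.19 in MEFF total and -0.05 and -0.01 in MEFF polyA RNA. From 200 to 225 kb they were 0.12 in MEFB polyA, -0.13 and -0.16 in MEFF total and -0.10 and -0.19 in MEFF polyA RNA. The total minus polyA difference lay between 0.28 and 0.35 in the first 5 bins. It was 0.25 from 125 to 150 kb, 0.27 from 150 to 175 kb, 0.13 from 175 to 200 kb and -0.0031 from 200 to 225 kb. The MEFB minus MEFF polyA difference lay between 0.66 and 1.01 in the first 5 bins and was 0.58, 0.55, 0.41 and 0.26 in the next 4. The inner part of the intron was above the outer part on every array, by 0.66 in MEFB polyA, 0.44 and 0.43 in MEFF total and 0.18 and 0.37 in MEFF polyA RNA, and it stayed above on every array under the 6 scalings compared. The inner part is the chosen stretch, so this order was fixed in part by the choice and is no test.

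**Figure D3:**
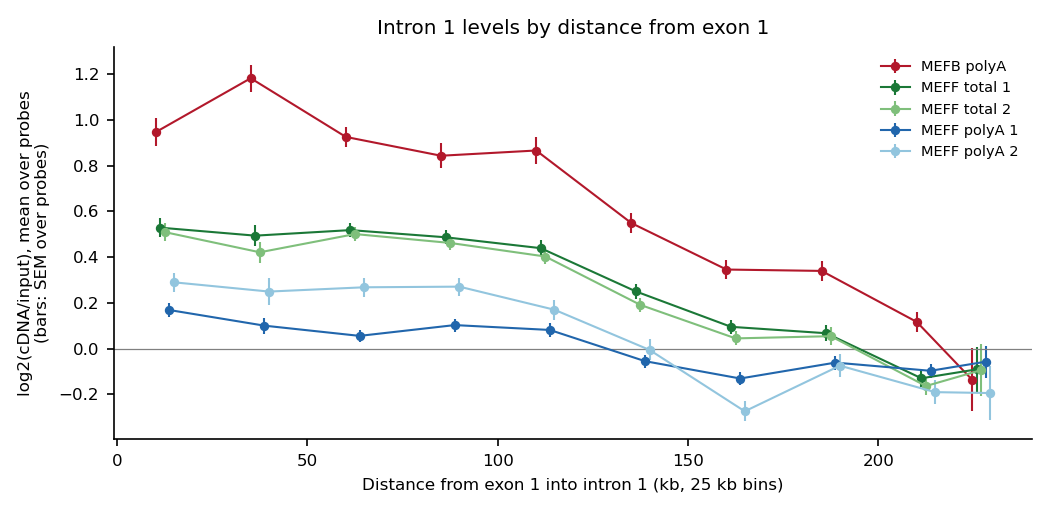
Mean log2(cDNA/input) of intron 1 probes in bins of 25 kb (y axis, bars are the SEM over probes, which are not replicates) against distance from exon 1 (kb, x axis), with 1 line per array. MEFB polyA RNA lies between 0.84 and 1.18 over the first 5 bins and at 0.12 between 200 and 225 kb.

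The windows on either side, which the choice did not use but whose values were known when the bounds were set, are the next on the chromosome. The 30 windows on the 3′ side hold the rest of intron 1, introns 2 to 4 and exons 2 to 5. They averaged 0.42 in MEFB polyA, 0.07 ± 0.03 in MEFF total and -0.04 ± 0.02 in MEFF polyA RNA (SD, n = 2 each for MEFF). As deposited, the MEFB array lay above all 4 MEFF arrays in 30 of these 30 windows, against 30.9% of all windows. Both total arrays lay above both polyA arrays in 20 of 30, against 14.2%. After normexp, MEFB fell below MEFF total replicate 1 in some of these windows, for example at 61085000, with 1.21 against 1.40. The 30 windows on the 5′ side, with the start of the gene and the sequence upstream, averaged -0.19 in MEFB polyA, -0.23 on both MEFF total arrays and -0.13 and -0.31 in MEFF polyA RNA. MEFB lay above all 4 MEFF arrays in 6 of these 30, and total above polyA in 4 of 30.

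As deposited, limma called 0 of these 60 windows in total minus polyA, with a smallest adjusted p of 0.573. At an unadjusted p under 0.05, 5 of 60 passed, against 7.73% of all windows. In MEFB minus MEFF polyA limma also called 0 of 60, with a smallest adjusted p of 0.117. Here 27 of 60 had an unadjusted p under 0.05, against 15.7% of all windows. After normexp, 3 of 60 were called higher in total RNA, against 0.689% of all windows, and 4 of 60 higher in MEFB, against 1.96%. At the 3′ bound, the window just inside had a total minus polyA difference of 0.35 and a MEFB minus MEFF polyA difference of 0.63, and the window just outside had 0.35 and 0.66. At the 5′ bound, the window just inside had 0.35 and 0.79, and the one just outside, which holds exon 1, had -0.49 and 0.05. Both differences were thus close on the 2 sides of the 3′ bound, and both were lower outside the 5′ bound than inside it.

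The exons behaved differently from the intron. Over 37 probes in exons 1, 2, 4 and 5 (no probe lay in exon 3), the mean level was 3.79 in MEFB polyA, 1.65 and 1.499 in MEFF total and 2.10 and 3.05 in MEFF polyA RNA. Intron 1 as a whole, with 1473 probes, stood at 0.66 in MEFB polyA, 0.30 and 0.26 in MEFF total and 0.02 and 0.07 in MEFF polyA RNA. Exons were thus lower in total than in polyA RNA of MEFF, by 1.00 on average, where intron 1 was higher by 0.23. The groups kept apart in this direction for exons after normexp (-0.87) and with the cDNA alone (-1.04). They overlapped after loess (-0.22) and normexp with quantile normalization (-0.22), and the direction turned with quantile normalization (0.14), whereas intron 1 was higher in total RNA under all 6 scalings. Of its 1473 probes, 783 belong to the chosen stretch, so the intron direction was fixed in part by that choice. Intron 1 outside the stretch was higher in total RNA by 0.15 as deposited. Under the other 5 scalings it was higher by 0.12 (cDNA alone) to 0.44 (normexp with quantile normalization).

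The distance between exons and intron 1 on the same array was 3.13 in MEFB polyA, 1.35 and 1.24 in MEFF total and 2.08 and 2.98 in MEFF polyA RNA. As a ratio, exons lay 8.73-fold above intron 1 in MEFB polyA, 2.55-fold and 2.36-fold in MEFF total and 4.24-fold and 7.89-fold in MEFF polyA RNA. Both total arrays had a smaller distance than both polyA arrays under each of the 6 scalings, with a mean difference between -0.21 after quantile normalization and -1.52 after normexp. This is a description without a test, since 783 of the 1473 intron probes belong to the chosen stretch. The cDNA range of the arrays, 5.42 and 5.33 for total and 9.17 and 22.4 for polyA RNA, moved with this distance, and its part in the result was not tested.

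**Figure D4:**
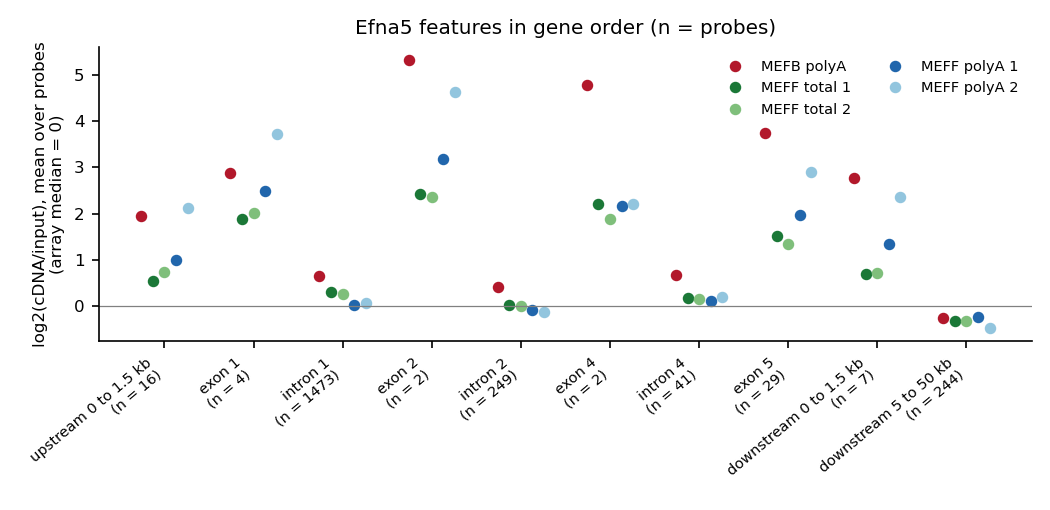
Mean log2(cDNA/input) per array (y axis) for features of Efna5 in gene order, with the number of probes below each name. Exon 2 reaches 5.31 in MEFB polyA RNA, while intron 1 lies at 0.66 or below on all 5 arrays.

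Exon 2, which encodes most of the part that binds the receptor, had 2 probes. They averaged 5.31 in MEFB polyA, 2.42 and 2.37 in MEFF total and 3.17 and 4.63 in MEFF polyA RNA. Exon 1, with the start of the coding sequence, had 4 probes and averaged 2.88 in MEFB polyA, 1.89 and 2.01 in MEFF total and 2.498 and 3.73 in MEFF polyA RNA, so that MEFB fell between the MEFF polyA replicates there. Exon 5, mostly 3′ untranslated sequence with 29 probes, averaged 3.74 in MEFB polyA, 1.52 and 1.34 in MEFF total and 1.96 and 2.91 in MEFF polyA RNA. The MEFB minus MEFF polyA difference was 1.30 in exon 5 and 1.41 in exon 2, and -0.23 in exon 1, where it became 0.80 with the cDNA alone. For exons 2 and 5 it stayed above 0 under all 6 scalings.

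Exon 4, the exon that one transcript leaves out, had the largest MEFB minus MEFF polyA difference of the 4 exons with probes, under each of the 6 scalings. Its 2 probes averaged 4.79 in MEFB polyA, 2.21 and 1.88 in MEFF total and 2.17 and 2.22 in MEFF polyA RNA, and the MEFB minus MEFF polyA difference of 2.596 lay between 1.86 and 2.67 under the other 5 scalings. The probe at 60958031, with 37 of its bases in the exon, had 5.13 in MEFB polyA, 1.72 and 1.31 in MEFF total and 1.504 and 0.67 in MEFF polyA RNA. The probe at 60958081, with 44 bases in the exon, had 4.45 in MEFB polyA, 2.70 and 2.46 in MEFF total and 2.84 and 3.76 in MEFF polyA RNA. The 2 probes thus differed more in MEFF polyA RNA than in MEFB polyA RNA, and no test was run on single probes. The rank of exon 4 rests on the probe at 60958031. At the probe at 60958081 alone, as deposited, the MEFB minus MEFF polyA difference was smaller than the 1.41 of exon 2 and the 1.30 of exon 5. The shorter introns 2 and 4 stood at 0.41 and 0.67 in MEFB polyA RNA and between -0.14 and 0.20 on the 4 MEFF arrays.

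At the placed positions, signal of the polyA arrays did not stop at the annotated ends. In the 1.5 kb upstream of exon 1, 16 probes averaged 1.94 in MEFB polyA, 0.54 and 0.75 in MEFF total and 1.00 and 2.12 in MEFF polyA RNA. The probe at 61227417 had 3.65 in MEFB polyA, 1.97 and 2.28 in MEFF total and 2.77 and 4.55 in MEFF polyA RNA. Between 1.5 and 5 kb upstream the averages were 0.52 in MEFB polyA, 0.19 on both MEFF total arrays and 0.06 and 0.35 in MEFF polyA RNA. In the 1.5 kb downstream of exon 5, 7 probes averaged 2.78 in MEFB polyA, 0.69 and 0.72 in MEFF total and 1.34 and 2.36 in MEFF polyA RNA, and the next 3.5 kb stood at 0.35 in MEFB polyA, -0.01 on both MEFF total arrays and 0.12 and -0.15 in MEFF polyA RNA. These zones were chosen after their values were seen. Around exon 1 the placing rests on neighbouring probes, because the 25 kb block there was not placed by its own signal. From 61226877 to 61250955 the input signal correlated with its prediction at only 0.173. The probes at 61226727 and 61226877 were placed in reverse of their file order. Positions around exon 1 and upstream of it are therefore uncertain.

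Efna5 was then set beside genes that could also be placed from the input signal, by blocks and with a refitted prediction. Of its 5 listed gene neighbours, parts of Nudt12, Fbxl17, Pja2 and Man2a1 were placed, and the search run for Fer itself placed no probe, and of the Eph signalling genes Vav1, Tiam2 and Sos1 none had probes placed. Over all introns of Efna5 together, the level was 0.63 in MEFB polyA, 0.26 and 0.22 in MEFF total and 0.00 and 0.05 in MEFF polyA RNA. The total minus polyA difference in introns was 0.21 for Efna5, 0.17 for Fbxl17, which encodes an F-box protein and also has long introns, 0.15 for Nkx2-5, 0.12 for Ltbp1, 0.08 for Crim1, 0.04 for Pja2, 0.03 for Treml1, 0.000 for Emilin2, -0.05 for Man2a1, a Golgi mannosidase, -0.18 for Cyp1b1 and -0.21 for Nudt12. The MEFB minus MEFF polyA difference in introns was 0.60 for Efna5, 0.82 for Cyp1b1, 0.79 for both Pja2 and Man2a1, 0.72 for Crim1, 0.32 for Fbxl17 and 0.07 for Emilin2. It was below 0 for Nudt12 (-0.10), Nkx2-5 (-0.14), Ltbp1 (-0.15) and Treml1 (-0.33). Exons of every placed gene, like those of Efna5, were lower in total than in polyA RNA as deposited. The differences ran from -0.23 for Treml1 to -1.83 for Man2a1. For Efna5 exons the direction turned with quantile normalization, and the other genes were not compared under other scalings. Differences between genes were not tested, and for these genes only the parts of each that could be placed enter the values. The intron values rest on unequal numbers of probes, from 6 for Nkx2-5, 19 for Cyp1b1 and 28 for Treml1 to 1556 for Fbxl17. Exons of Fbxl17 had 4 probes. Of the 1766 intron probes of Efna5, 783 belong to the stretch chosen for both differences, so its place among these genes depends on that choice. Intron 1 outside the stretch had a total minus polyA difference of 0.15 and a MEFB minus MEFF polyA difference of 0.41.

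**Figure D5:**
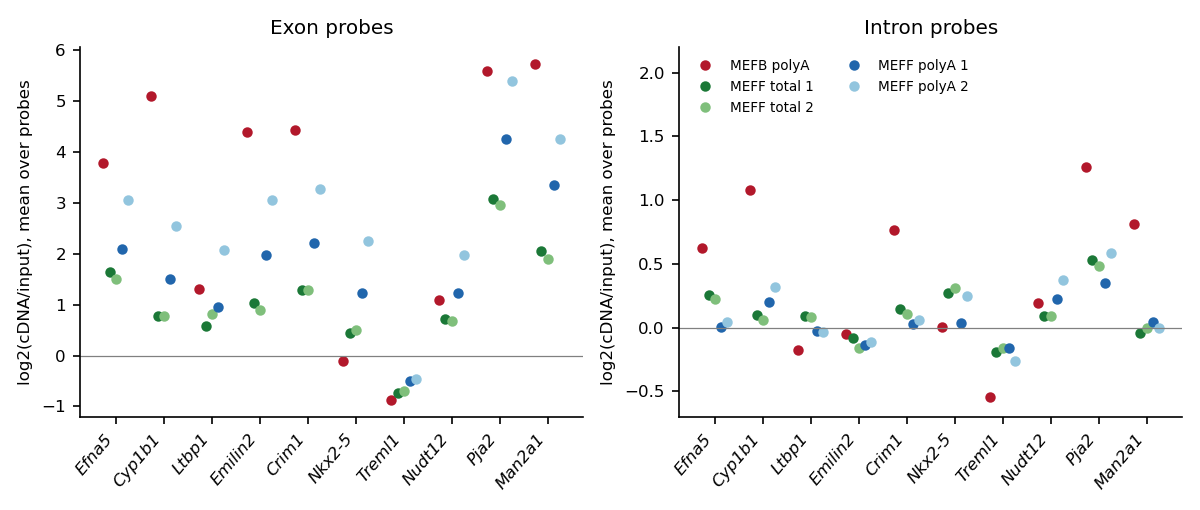
Mean log2(cDNA/input) per array (y axis) over exon probes (left) and intron probes (right) of Efna5 and 9 other genes with at least 5 placed probes of each kind. Efna5 introns stand at 0.63 in MEFB polyA RNA, and those of Cyp1b1, Crim1, Pja2 and Man2a1 lie between 0.76 and 1.26 on that array.

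Elsewhere on the chromosome, the 5 stretches of 25 windows whose mean levels were closest to those of the Efna5 intron lay at Euclidean distances of 0.332 to 0.370 over the 5 arrays. Blocks in 3 of them were placed, in Fer (by the probes of that stretch), in Runx2, a transcription factor of bone, and in Eml4, a microtubule protein. The stretch in Runx2 had 0.78 in MEFB polyA, 0.42 and 0.37 in MEFF total and 0.25 and 0.46 in MEFF polyA RNA. The stretch in Fer, which encodes a tyrosine kinase, had 0.83 in MEFB polyA, 0.28 on both MEFF total arrays and 0.24 and 0.31 in MEFF polyA RNA. In each of the 5 stretches, MEFB polyA RNA was lower than in the Efna5 intron, at 0.75 to 0.83 against 0.96, and MEFF polyA replicate 1 was higher, at 0.23 to 0.33 against 0.10. Because the Efna5 stretch was chosen for both differences, this order was fixed in part by that choice.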

How the data were processed

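Raw probe intensity in both channels is what the deposited files hold, written by NimbleScan 2.2.34 according to their headers, and the values show no sign of background subtraction or normalization. The array maker labelled and hybridised the samples, per the labels' protocols. For each probe log2(cDNA/input) was taken, each array was centred on its median, and probes were averaged in 5 kb windows that held at least 8 of them. The 25 windows hold 23 to 41 probes each, none at the scanner limit of 65535. limma 3.58.1 under R 4.3.3 (lmFit, eBayes) fitted 3 group means to all 5 arrays, with 2 residual degrees of freedom and Benjamini-Hochberg adjustment over all windows. A run on simulated windows took its spread from the MEFF total arrays alone. In the 25 windows the SD between arrays of the mean level was 0.03 for total and 0.09 for polyA RNA. That run therefore cannot show how the fit performs on these arrays. The number of arrays limits the precision.

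Probes were placed on NCBIM37 by matching the input signal to the signal predicted from base composition, with no cDNA value used. For Efna5 the prediction was trained on 2157 probes downstream of the gene. Each Efna5 probe took its shift from a path fitted probe by probe, and blocks of 25 kb were slid as a check. Other genes and stretches were placed by blocks of 25 kb, after the prediction was refitted on 10519 probes. Those included 60 blocks accepted in a first round, so the second round was not independent of it. A probe counted as exonic with at least 25 of 50 bases in an exon. The members, gene lists and bounds were chosen with earlier results of these data known. Named windows were the 3 highest and 3 lowest by the equal-weight mean of the groups and those with the largest and smallest difference. Similar stretches were those nearest by Euclidean distance. Alternatives were probe medians, 2 kb or 10 kb windows, loess (span 0.3), quantile normalization, normexp (offset 50) alone and with quantile normalization, the cDNA alone, no probes in the lowest 10% of input, a trended prior, only the compared groups, and each replicate left out, also after normexp.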

Additional observations from a re-analysis of the deposited data

How the results depend on the processing

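Both differences served to choose the 25 windows on these same arrays, so their sign was fixed in part by that choice. The 25-window difference kept its sign under all alternatives run. For total minus polyA it was 0.48 after quantile normalization, 0.83 after normexp and 0.80 after both, and for MEFB minus MEFF polyA 0.55, 1.07 and 1.12. With a replicate left out it ranged from 0.24 to 0.37 and from 0.73 to 0.86, and after normexp with a replicate left out from 0.76 to 0.91 (0.87 without MEFF polyA replicate 2) and from 1.04 to 1.11. Counts of called windows on the array moved far more. For total minus polyA they were 929 after quantile normalization, 518 after normexp and 597 after both, against 0 as deposited, and with a replicate left out 0 to 4485 (81, 172, 1283 and 1984 after normexp). The 4485 and a count of 3197 came without MEFF polyA replicate 1 and without replicate 2. For MEFB minus MEFF polyA, against 1 as deposited, they were 0 with the median of probes and with only the compared groups, 4 and 10 with windows of 2 and 10 kb, 18 with the cDNA alone, 405 with a trended prior, 448 after loess, 1047 after quantile normalization, 488 after normexp and 973 after both. With a replicate left out they were 0 to 6984 (338, 759 and 2045 after normexp), the 6984 and 6890 without MEFF polyA replicate 1 and without replicate 2. Of the 60 flanking windows, total minus polyA called 6, 3 and 4 after quantile normalization, normexp and both, and 0 to 21 with a replicate left out (0, 7 and 11 after normexp). MEFB minus MEFF polyA called 13 after loess, 12 with a trended prior, 17, 4 and 16 after quantile normalization, normexp and both, and 0 to 39 with a replicate left out (0, 11 and 21 after normexp). For the input DNA, leaving out a replicate called 0 to 3 of the 25 windows, and 47 to 3311 of all 15383. The cause of these shifts was not tested.

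Directions turned outside the 25 windows and, among the named windows inside, in window 61180000 (total minus polyA -0.0451 without MEFF polyA replicate 2). Window 60950000, with part of exon 5, turned to 0.121 in total minus polyA after quantile normalization. Window 61225000, with exon 1, turned in MEFB minus MEFF polyA to -0.0763 after loess, -0.0719 after quantile normalization, -0.341 after normexp (also without either total replicate), -0.251 after both, -0.332 without MEFF polyA replicate 1 (against 0.441 without replicate 2) and -0.804 without it after normexp. Among scalings added after seeing the data, total minus polyA turned to 0.138 for all exons and 0.0711 for exon 5 after quantile normalization. It turned to 0.34 and 0.128 for exon 1 and to 0.335 and 0.198 for exon 2 after loess and quantile normalization. For exon 4 it turned to 0.735, 1.06, 0.889 and 1.88 after loess, quantile normalization, normexp and both. MEFB minus MEFF polyA turned to 0.798 for exon 1 with the cDNA alone, -0.0987 upstream after normexp and -0.103 downstream after loess. No paired analysis was possible because the groups share no replicate number in the labels, and numbers follow the order of deposit. With 2, 2 and 1 arrays, the spread of the MEFB line is unknown, and signal over background was lowest on the total RNA arrays.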
